A study of Saccharomyces cerevisiae with 18 samples.

Results

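The protein-coding frames of the Ty1, Ty2 and Ty4 retrotransposons of budding yeast were followed across a dose series of α-pheromone. The members were chosen by systematic gene name. Of the 60 names, 58 occur among the 7126 gene names of the expression tables, and the remaining pair, YBL101W-A and YBL101W-B, was not analysed here. The 58 open reading frames (ORFs) comprise 39 ORFs of 21 Ty1 copies, 14 ORFs of 7 Ty2 copies and 4 ORFs of 2 Ty4 copies, and YLR035C-A, which lies in no annotated full copy. Above a mean of 1 RPKM (mapped reads of an ORF scaled to its length in kilobases and to the size of the library, averaged over all libraries) stood 16 ORFs of 9 copies. The lowest of them was YJR027W at 1.40 RPKM, and the first below was YAR009C at 0.857 RPKM.

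All libraries come from 1 haploid MATa strain, yAA95, a derivative of SEY6210a. The strain has a PFUS1-Ubi(I)-sfGFP-TFUS1 reporter at ura3 and lacks bar1, mfalpha1, mfalpha2 and arg4. According to the study's methods it also has loss-of-function mutations in kss1, so untreated and treated cells alike lack that kinase. Cells in glucose medium at 30 °C were exposed to synthetic α-pheromone for 60 min, and ribosomal RNA was depleted before sequencing with single reads of 50 bases. There are 18 libraries in 2 experiments of 9 doses each: the first covers 0, 1, 5, 10, 15, 20, 50, 100 and 500 nM and the second 0, 0.05, 0.25, 1, 5, 10, 20, 50 and 500 nM. The main comparison sets 7 libraries at 20 nM and above against 4 at 0.25 nM and under.

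Ty elements are retrotransposons that move through an RNA copy. The full-length transcript starts in a long terminal repeat, encodes the particle protein Gag and, by a frameshift of the ribosome, a longer Gag-Pol protein with protease, integrase and reverse transcriptase. Ty1 and Ty2 are closely related, Ty4 is more distant, and all prefer to insert near genes read by RNA polymerase III, such as tRNA genes. In haploid cells the pheromone-activated factor Ste12 and its partner Tec1 are known to bind Ty1 sequences and to promote its transcription. In the gene names used here the ORF ending in A is usually gag, and the longer one ending in B covers gag and pol, so that reads from gag are counted in both.

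The copies of a family are nearly identical, and only parts of them differ from all others. The 50-base stretch below is one of those in which the Ty2 gag ORF YDR261W-A (chr4:981465-981514, plus strand, R64 build, equal to sacCer3) has no exact match elsewhere in the genome, and it is shown with the same stretch (bases 4 to 53 of the ORF) of YBL100W-A (chr2:29938-29987, plus strand) and YGR161W-A (chr7:811741-811790, plus strand). Capitals mark bases that differ from the most common base of the 7 Ty2 gag ORFs.
YDR261W-A: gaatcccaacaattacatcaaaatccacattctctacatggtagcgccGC
YBL100W-A: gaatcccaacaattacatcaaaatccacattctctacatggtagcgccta
YGR161W-A: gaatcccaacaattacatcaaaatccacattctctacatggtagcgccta

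The stretch of YDR261W-A occurs once in the genome and that of the other pair 4 times. Mean levels were 33.8 RPKM for YDR261W-A and 5.55 RPKM for YBL100W-A, while YGR161W-A is listed at 0 in every library. The next set shows the like for Ty1 gag, bases 1179 to 1228 of YNL284C-A (chr14:101005-101054, minus strand), YMR046C (chr13:361400-361449, minus strand) and YGR027W-A (chr7:537235-537284, plus strand), with capitals for differences from the most common base of 17 Ty1 gag ORFs of 1323 bases.
YNL284C-A: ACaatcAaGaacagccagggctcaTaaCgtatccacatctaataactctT
YMR046C: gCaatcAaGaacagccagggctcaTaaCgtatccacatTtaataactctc
YGR027W-A: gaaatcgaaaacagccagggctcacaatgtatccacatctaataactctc

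These stretches occur once, 2 times and 28 times in the genome, in the order shown. Mean levels were 18.1 RPKM for YNL284C-A and 15.8 RPKM for YMR046C, and YGR027W-A is listed at 0. Both measured Ty1 gag ORFs share a set of rare bases that the common Ty1 copies lack.

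The level at which an ORF is listed went with how much of it is unique. Of the 24 ORFs listed at 0 in all libraries, 22 have no 50-base window that occurs once in the genome, and the other pair, YGR038C-A and YGR038C-B, has at most 2.20% unique windows. The 18 ORFs above 0 but not above 1 mean RPKM have a median of 3.19% unique windows, from 0 to 10.9%. The 16 ORFs above 1 mean RPKM have a median of 11.2%, from 1.53% to 34.5%. The 5 with the most unique sequence are YNL284C-A with 34.5%, YJL113W with 26.6%, YMR046C with 22.3%, YJL114W with 20.6% and YBL100W-A with 19.7%. These shares count exact matches only. With no other window within 1 mismatch, an alternative added after seeing the data, they were 5.65%, 10.5%, 2.28%, 1.42% and 0.71% in this order. Within 2 mismatches they were 0, 1.00%, 0, 0.95% and 0. A listed 0 thus does not tell a silent copy from one without private sequence. YJR029W and YMR050C have no unique window and 1 read each over all libraries.

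**Figure D1:**
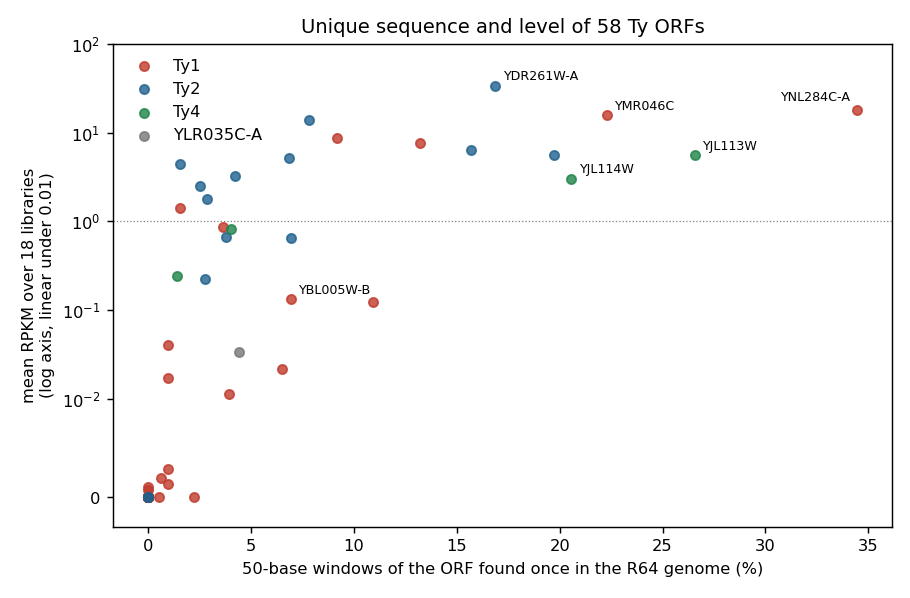
Share of 50-base windows found once in the R64 genome (x axis, %) against mean RPKM over 18 libraries (y axis, logarithmic above 0.01 and linear below), 1 point for each of 58 Ty ORFs, coloured by family, with a dotted line at 1 RPKM. The 24 ORFs at 0 RPKM lie at or under 2.20% unique windows, and the ORFs above 15 RPKM, YDR261W-A, YNL284C-A and YMR046C, lie above 15% unique windows.

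Some ORFs with more unique sequence were listed at lower levels than others with less. YBL005W-B, the gag-pol ORF of a Ty1 copy on chromosome II, has 6.92% unique windows and averaged 0.132 RPKM, and YBR012W-B has 6.51% and averaged 0.0215 RPKM, whereas the Ty2 ORF YCL019W averaged 4.47 RPKM with 1.56%. Whether the strain carries each reference copy, and whether reads of copies absent from the reference fell on these stretches, was not tested.

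Of the 16 measured ORFs, 9 were at least 2-fold higher at 20 nM and above than at 0.25 nM and under and 0 were lower (limma; limma-voom on recovered reads likewise called 9 and 0, and at an unadjusted p under 0.05, 14 were higher and 0 lower). Among all 6002 genes tested, 2.28% were called higher and 4.40% lower by the same rule (limma on log2(RPKM + 1), adjusted p under 0.05 and at least 2-fold). By the adjusted p alone, 11 of the 16 were higher, against 9.10% of all genes, and 0 were lower, beside 25.9% of all genes. The fold change was positive for all 16, with a median log2 fold change of 1.07, beside a median of -0.10 over all genes tested. All 7 libraries at 20 nM and above lay over all 4 low-dose libraries for 12 of the 16, beside 6.98% of all genes. Gag ORFs among the 16 share their reads with the gag-pol ORFs that contain them. These counts and the later counts of the 16 are therefore not counts of separate genes, unlike the shares of all genes. The 9 called ORFs lie in the copies YDRWTy2-3, YBLWTy2-1, YDRCTy2-1, YNLCTy1-1 and YJLWTy4-1. YJL114W passed the filter on low values only through its levels at high dose and so had to differ. Without it, an alternative added after seeing the data, 8 of 15 were called higher and 0 lower, 10 passed the adjusted p, 11 had groups that do not overlap, and the median log2 fold change was 1.01. The count of 9 was 3 with a pseudocount of 5 RPKM and 3 in experiment 1 alone, which has 1 low-dose library. In RNA of whole cultures, more responding cells and more RNA per cell cannot be told apart.

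**Figure D2:**
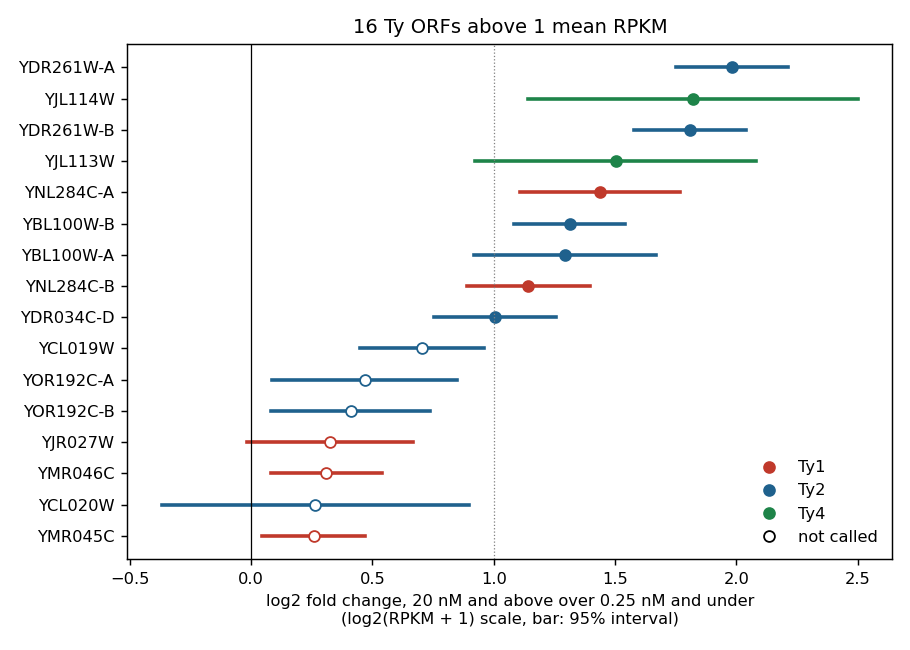
Log2 fold change of each of 16 Ty ORFs at 20 nM and above (7 libraries) over 0.25 nM and under (4 libraries), on the log2(RPKM + 1) scale, with 95% intervals as bars, coloured by family. Filled points are called at adjusted p under 0.05 and at least 2-fold (dotted line at 1). The points run between 1.98 for YDR261W-A and 0.26 for YMR045C.

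The Ty2 copy YDRWTy2-3 on chromosome IV gave the highest listed RPKM of any copy and, on the log2(RPKM + 1) scale, the highest fold change. Its rank in level depends on the unequal unique sequence of the copies. Scaled to the share of unique 50-base windows, YCL019W had a mean of 287 RPKM and YDR261W-A 200. In log2 fold change with a pseudocount of 0.1, YJL114W was above YDR261W-A, at 2.72 against 2.07. That value of YJL114W is a description only, since this ORF passed the filter on low values only through its levels at high dose. The gag-pol ORF of YDRWTy2-3 spans bases 981462 to 986775 of the plus strand, and gag its first part up to 982778. The gag ORF YDR261W-A had 51.9, 66.1, 61.7 and 62.7 RPKM at 20, 50, 100 and 500 nM in experiment 1 and 38.4, 43.2 and 37.2 RPKM at 20, 50 and 500 nM in experiment 2, against 12.3 RPKM at 0 nM in experiment 1 and 8.62, 10.96 and 11.02 RPKM at 0, 0.05 and 0.25 nM in experiment 2. Every library at 20 nM and above was more than 2-fold over every low-dose library. The log2 fold change was 1.98 ± 0.10 (SE), with an adjusted p of 2.9e-07 in limma. The gag-pol ORF YDR261W-B, which contains it, averaged 21.3 ± 4.59 RPKM at 20 nM and above and 4.74 ± 0.55 RPKM at 0.25 nM and under (SD, n = 7 and 4), a log2 fold change of 1.81 ± 0.10 (limma adjusted p 4.9e-07).

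A second Ty2 copy, YBLWTy2-1 on chromosome II, also rose in both ORFs, which begin at base 29935 of the plus strand. Its gag-pol ORF YBL100W-B had between 6.89 and 11.3 RPKM in the high-dose libraries, with a median of 9.56, against 2.36 to 3.02 RPKM in the low-dose libraries (log2 fold change 1.31 ± 0.10, limma adjusted p 4.7e-06). Its gag ORF YBL100W-A averaged 7.82 ± 1.79 RPKM at 20 nM and above and 2.37 ± 0.76 RPKM at 0.25 nM and under (log2 fold change 1.29 ± 0.17, limma adjusted p 2.1e-04). The groups do not overlap for either ORF.

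The Ty2 copies YDRCTy2-1 and YCLWTy2-1 were near the 2-fold threshold. YDR034C-D, the gag-pol ORF of YDRCTy2-1, averaged 4.44 ± 0.78 RPKM at 20 nM and above and 1.51 ± 0.30 RPKM at 0.25 nM and under, a log2 fold change of 1.01 ± 0.11 (limma adjusted p 7.2e-05). The call is at the threshold: it was lost when 0 nM of either experiment, 0.05 nM, 50 nM of experiment 1 or 20 nM of experiment 2 was left out, with a lowest log2 fold change of 0.97. YCL019W, the gag-pol ORF of YCLWTy2-1, averaged 5.66 ± 1.10 RPKM at 20 nM and above and 2.78 ± 0.32 RPKM at 0.25 nM and under, and its log2 fold change of 0.71 ± 0.12 passed the adjusted p (9.5e-04, limma) but not 2-fold. Its gag ORF YCL020W, with 633 reads over all libraries, had 1.89 to 5.31 RPKM against 1.04 to 4.44 RPKM, overlapping groups and a log2 fold change of 0.26 ± 0.29 (limma adjusted p 0.48). That value was -0.09 when only the 0 nM libraries served as the low group.

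The remaining measured Ty2 copy, YORCTy2-1 on chromosome XV, was not called in either ORF. YOR192C-A averaged 5.75 ± 1.21 RPKM at 20 nM and above and 3.70 ± 0.78 RPKM at 0.25 nM and under (log2 fold change 0.47 ± 0.17, limma adjusted p 0.056), with overlapping groups. YOR192C-B averaged 2.09 ± 0.44 and 1.19 ± 0.15 RPKM in the same order (log2 fold change 0.41 ± 0.15, limma adjusted p 0.053). Neither was 2-fold under another scaling, but both passed the adjusted p with libraries centred on their medians (0.024 and 0.020) and with quantile normalization (0.010 and 0.0048), without the replicate block (0.032 and 0.035) and with all 18 libraries in the fit (0.029 and 0.015). YOR192C-B also passed it in limma-voom (0.0059) and without the filter on low values (0.018). YDRWTy2-2, whose YDR210W-A and YDR210W-B stood at 0.653 and 0.669 mean RPKM, was under the filter, as was the gag ORF YDR034C-C at 0.224 mean RPKM.

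Among the 3 measured Ty1 copies, 1 was called in both ORFs and the others in none. The rising copy was YNLCTy1-1 on chromosome XIV, whose gag ORF YNL284C-A covers bases 100910 to 102232 of the minus strand. YNL284C-A had 22.7, 33.9, 29.7 and 29.0 RPKM at 20, 50, 100 and 500 nM in experiment 1 and 20.0, 24.9 and 22.4 RPKM at 20, 50 and 500 nM in experiment 2, against 13.3 RPKM at 0 nM in experiment 1 and 5.89, 5.79 and 7.86 RPKM at 0, 0.05 and 0.25 nM in experiment 2. All high-dose libraries lay above all low-dose ones, although the mock-treated library of experiment 1 was 2.26-fold above that of experiment 2. The log2 fold change was 1.44 ± 0.15 (limma adjusted p 3.8e-05). Its gag-pol ORF YNL284C-B averaged 10.6 ± 1.63 RPKM at 20 nM and above and 3.89 ± 1.13 RPKM at 0.25 nM and under (log2 fold change 1.14 ± 0.11, limma adjusted p 3.1e-05).

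The Ty1 copy YMRCTy1-3 on chromosome XIII was not called: its gag ORF passed the adjusted p without reaching 2-fold, and whether its gag-pol ORF passed it depended on the fit. The gag ORF YMR046C, at bases 361305 to 362627 of the minus strand, had 19.1, 20.9, 20.4 and 19.3 RPKM at 20, 50, 100 and 500 nM in experiment 1 and 16.5, 14.2 and 10.9 RPKM at 20, 50 and 500 nM in experiment 2, against 17.1 RPKM at 0 nM in experiment 1 and 10.6, 9.65 and 11.1 RPKM at 0, 0.05 and 0.25 nM in experiment 2. The groups overlap, and the 500 nM library of experiment 2 lay beside its own 0 nM library. The log2 fold change of 0.31 ± 0.10 passed the adjusted p (0.039, limma) with a 95% interval between 0.08 and 0.54, and without single libraries the adjusted p was up to 0.096. The gag-pol ORF YMR045C averaged 9.32 ± 1.62 RPKM at 20 nM and above and 6.86 ± 1.82 RPKM at 0.25 nM and under. Its 95% interval, between 0.04 and 0.47 on the log2 scale, lay within ±0.5, the limit used here for calling an ORF flat (log2 fold change 0.26 ± 0.10, limma adjusted p 0.059). YMR045C was the only one of the 16 to meet that limit, which 51.3% of all genes tested met. This depends on the scaling: with libraries centred on their medians the log2 fold change of YMR045C was 0.36 (limma adjusted p 0.025) and with quantile normalization 0.46 (0.0094), the intervals reached over 0.5, and the adjusted p was 0.032 in limma-voom and 0.033 with all 18 libraries in the fit. Within each library the ratio of YNL284C-A to YMR046C was between 1.19 and 2.05 at 20 nM and above and between 0.554 and 0.780 at 0.25 nM and under, values described after they had been seen and not tested.

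The other Ty1 copy above the filter was YJRWTy1-1 on chromosome X. Its gag-pol ORF YJR027W had 1.26 to 1.86 RPKM at 20 nM and above and 0.820 to 1.14 RPKM at 0.25 nM and under (log2 fold change 0.33 ± 0.16, limma adjusted p 0.12), while its gag ORF YJR026W is listed at 0. The groups of YJR027W do not overlap, and its values rest on 1474 reads over all 18 libraries. It passed the adjusted p with quantile normalization (0.016) and in limma-voom (0.015), each with a log2 fold change of 0.58, and without the filter on low values (0.041).

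The Ty4 copy YJLWTy4-1 on chromosome X rose, and late in the dose series. In the R64 annotation it has the gag-like ORF YJL114W and the pol-like ORF YJL113W side by side, at bases 197915 to 198595 and 198678 to 203325 of the plus strand. YJL113W had 5.05, 11.7, 12.7 and 12.8 RPKM at 20, 50, 100 and 500 nM in experiment 1 and 4.74, 8.99 and 10.4 RPKM at 20, 50 and 500 nM in experiment 2, against 2.72 RPKM at 0 nM in experiment 1 and 1.99, 2.03 and 2.39 RPKM at 0, 0.05 and 0.25 nM in experiment 2. Both 20 nM libraries were well below those at 50 nM and above. Its log2 fold change between these groups was 1.50 ± 0.26 (limma adjusted p 0.0014). YJL114W averaged 5.40 ± 2.02 RPKM at 20 nM and above and 0.735 ± 0.364 RPKM at 0.25 nM and under (SD, n = 7 and 4), given as a description because it passed the filter only through the high-dose libraries. The other Ty4 copy, YHLWTy4-1, had 0.807 ± 0.296 RPKM at 20 nM and above and 0.871 ± 0.214 RPKM at 0.25 nM and under in YHL009W-A, and 0.237 ± 0.085 and 0.263 ± 0.062 RPKM in YHL009W-B, with 0.830 and 0.242 mean RPKM over all libraries, and was not tested.

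**Figure D3:**
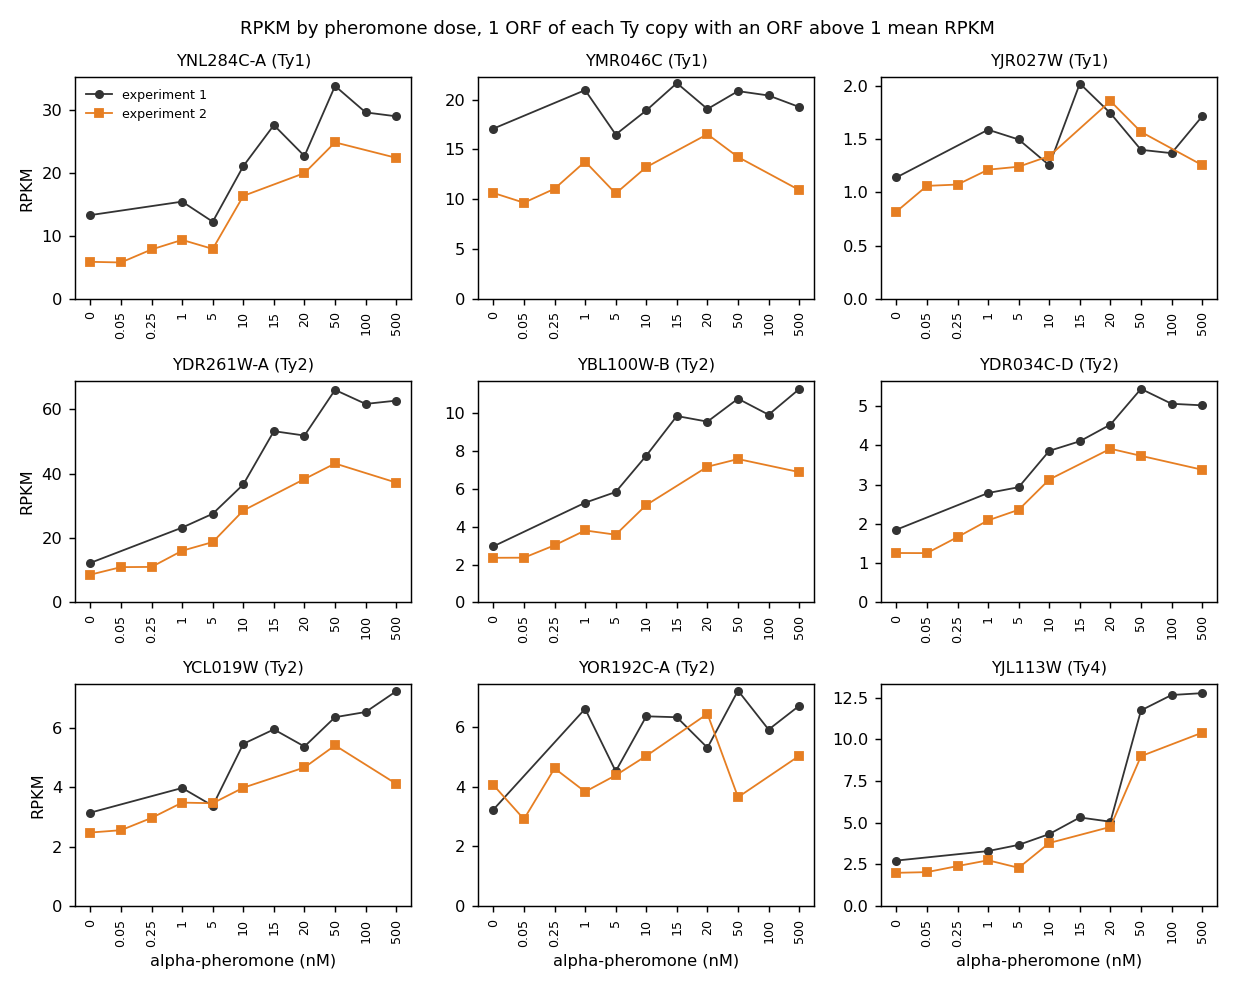
RPKM (y axis, starting at 0, own scale in each panel) against α-pheromone dose (x axis, nM, evenly spaced doses) for 1 ORF of each of the 9 copies with an ORF above 1 mean RPKM. Circles are experiment 1 and squares experiment 2, 1 library a point. YDR261W-A is highest at 50 nM in both experiments, at 66.1 and 43.2 RPKM, YJL113W climbs mainly between 20 and 50 nM, and YMR046C stays between 9.65 and 21.7 RPKM.

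Against the mock-treated libraries, the number of called Ty ORFs grew with dose. At 1 nM 0 of the 16 were called higher and 0 lower in limma (0.267% and 0.0334% of the 5995 genes tested), limma-voom on recovered reads likewise called 0 higher, and 6 were higher and 0 lower at an unadjusted p under 0.05. YDR261W-A was the 1 ORF that passed the adjusted p there, as 0.417% of all genes did. At 5 nM 1 was called (0.601% of all genes), at 10 nM 3 (1.55%), at 20 nM 8 (1.77%), at 50 nM 9 (2.20%) and at 500 nM 9 (5.42%). The counts at 20, 50 and 500 nM include YJL114W, which passed the filter on low values only through libraries with pheromone. It had 0.610 and 0.872 RPKM at 0 nM. The count at 20 nM rests on few libraries: it was 3 without 20 nM of experiment 2 and 5 without 0 nM of experiment 2. YDR261W-A was the ORF called at 5 nM, YDR261W-B and YBL100W-B joined it at 10 nM, and YJL113W was the last of the 9 to be called, at 50 nM.

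The shapes of the dose series differed in description. The log2 fold change of YDR261W-A over 0 nM was 0.85 at 1 nM, 1.07 at 5 nM, 1.56 at 10 nM, 2.01 at 20 nM, 2.27 at 50 nM and 2.13 at 500 nM. For the Ty1 ORF YNL284C-A it was 0.40, 0.13, 0.98, 1.17, 1.60 and 1.42 at these doses. For the Ty4 ORF YJL113W it was 0.27, 0.23, 0.60, 0.82, 1.76 and 1.91. Expressed as the share of the rise between 0 nM and the highest library of its experiment, YDR261W-A had reached 73.6% in experiment 1 and 86.0% in experiment 2 at 20 nM, while YJL113W had reached 23.2% and 32.8%. The step from 20 to 50 nM was 0.94 ± 0.15 (log2, SE) for YJL113W and 0.26 ± 0.09 for YDR261W-A, a contrast picked after the series had been seen and given without a test.

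Levels differed between the experiments. At all 7 shared doses experiment 1 was higher than experiment 2 for 10 of the 16 ORFs, beside 24.8% of all genes, with median ratios between 1.23 for YJL113W and 1.52 for YMR046C among these 10. A difference between the experiments in the response was not detectable: the interaction of experiment and dose class passed the adjusted p in 0 of 5994 genes (0% in limma), and 1 of the 16 ORFs, YBL100W-A, had an unadjusted p under 0.05 (0.034, limma). Untreated cells were sequenced within each experiment, and what else separates the experiments cannot be told apart.

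The reads of the gag-pol ORFs outside gag also differed by copy. In this pol part YDR261W-B had 11.4 RPKM at 20 nM and above and 2.77 RPKM at 0.25 nM and under, YBL100W-B had 9.43 and 2.78 RPKM, YCL019W had 6.52 and 2.93 RPKM, and YDR034C-D had 5.84 and 1.93 RPKM. The Ty2 ORF YOR192C-B had 0.888 and 0.365 RPKM there, a log2 ratio of 1.28 that was not tested. Its mean there over all libraries was 0.685 RPKM, so it passed the filter of 1 RPKM only with its gag reads. The Ty1 ORF YNL284C-B had 5.38 and 2.44 RPKM in the pol part, a log2 ratio of 1.14. YMR045C had 6.64 and 5.11 RPKM, and YJR027W 2.08 and 1.37 RPKM. With gag reads taken out, an alternative added after seeing the data, YNL284C-B kept its direction but was no longer called (log2 fold change 0.83, limma adjusted p 1.8e-04). In YDRCTy2-1 the gag ORF YDR034C-C stood at 0.212 RPKM at 20 nM and above and 0.214 RPKM at 0.25 nM and under, unlike the pol part of the same copy.

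**Figure D4:**
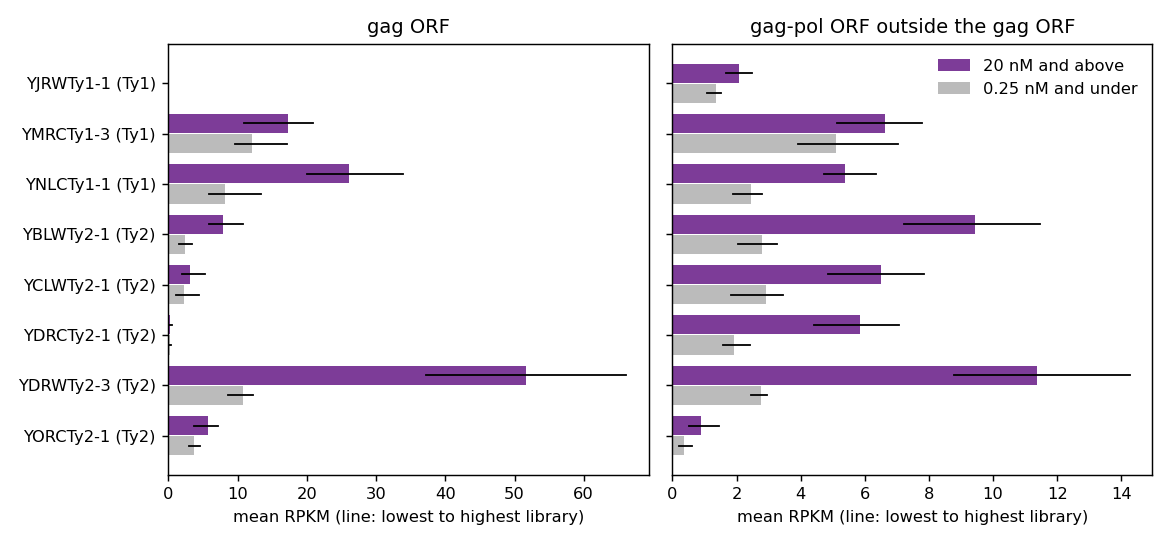
Mean RPKM at 20 nM and above (purple, 7 libraries) and at 0.25 nM and under (grey, 4 libraries) of the gag ORF (left) and of the gag-pol ORF outside it (right) for the 8 Ty1 and Ty2 copies with either above 1 mean RPKM, with lines between the lowest and the highest library. The purple bar is longer in every pair but those of the gag ORFs of YJRWTy1-1, listed at 0, and YDRCTy2-1, near 0.21 RPKM in both groups.

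Summed over all listed ORFs of a family, Ty2 gave 322 ± 66.4 RPM (ORF reads scaled to the size of the library but not to length) at 20 nM and above and 96.5 ± 9.80 at 0.25 nM and under (SD, n = 7 and 4 libraries), a ratio of 3.33. Ty1 gave 176 ± 25.7 and 91.3 ± 24.5 RPM in the same order, a ratio of 1.93, and Ty4 gave 50.0 ± 16.7 and 13.6 ± 1.54, a ratio of 3.68. High-dose libraries lay above low-dose libraries without overlap in all 3 sums. These sums count the reads of a gag ORF again in the gag-pol ORF that contains it. Without such gag ORFs, Ty2 gave 231 and 70.5 RPM and Ty1 119 and 64.2 RPM in the same order. The ratios were then 3.27 for Ty2, 1.85 for Ty1 and 3.91 for Ty4. Since 22 of the 39 Ty1 ORFs are listed at 0, the sums are not a measure of the family's RNA.

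The genes next to the copies were examined to see whether the copies that rose lie beside genes that rose. Around the 9 copies with a measured ORF lie 18 nearest protein-coding genes, of which 16 were tested. In limma 0 were called higher and 1 lower (2.28% and 4.40% of all genes). By the adjusted p alone 2 were higher and 6 lower (9.10% and 25.9% of all genes), and at an unadjusted p under 0.05, 3 and 7. Next to YDRWTy2-3, EXG2, a cell wall glucanase gene 1961 bases away, had a log2 fold change of -0.17. The nearest gene on the other side of YDRWTy2-3, YDR262W, lies 6008 bases away and had one of -0.01. Next to YNLCTy1-1, MRPL10 had -0.23 and CUS2 -0.42. Next to YJLWTy4-1, ASF1, a histone chaperone gene 418 bases before the element and on its strand, fell by 0.95 on the log2 scale (limma adjusted p 3.2e-04), and the mitochondrial fission gene MDV1 by 0.37 (6.4e-04). The largest positive values were 0.55 for BNA1, next to the Ty1 copy YJRWTy1-1, and 0.51 for PEX27, next to YORCTy2-1, both copies without a called ORF. None of the copies with a called ORF thus had a neighbour that rose by the call.

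**Figure D5:**
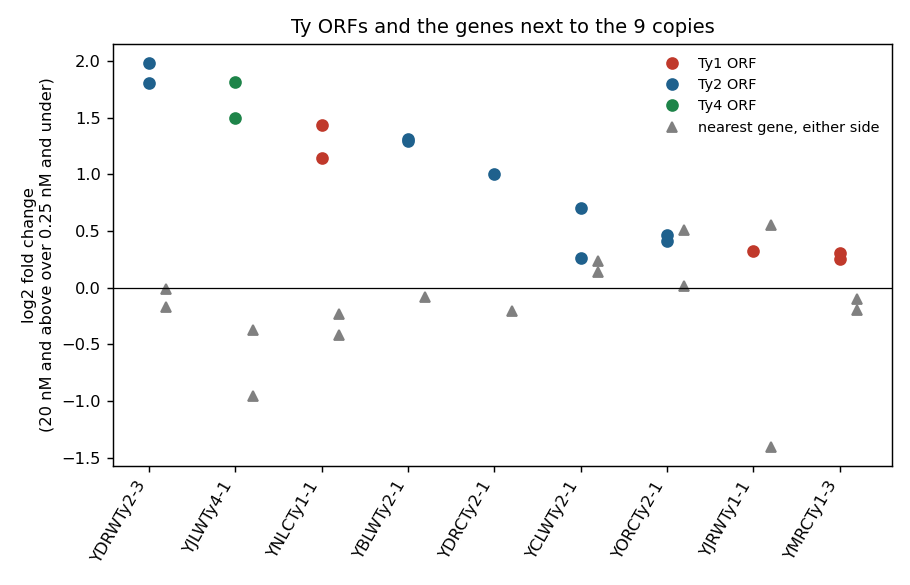
Log2 fold change at 20 nM and above over 0.25 nM and under (y axis) of the Ty ORFs (circles, coloured by family) and of the nearest tested protein-coding gene on either side (grey triangles) for the 9 copies with a measured ORF, ordered by the highest ORF value. The triangles lie between -1.40 (RBH2) and 0.55 (BNA1), and those of the first 5 copies are all below 0. Nearest does not mean adjoining: RBH2 lies 5574 bases from YJRWTy1-1 and YDR262W 6008 bases from YDRWTy2-3.

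Around all 30 annotated copies, 54 nearest genes were tested, of which 1 was called higher and 2 lower, beside 2.28% and 4.40% of all genes. The higher one was GRX3, a glutaredoxin gene of iron regulation, 571 bases beyond the end of the Ty1 copy YDRCTy1-1 and on its strand. GRX3 had 303, 1164, 1360 and 1498 RPKM at 20, 50, 100 and 500 nM in experiment 1 and 410, 1103 and 1497 RPKM at 20, 50 and 500 nM in experiment 2, against 87.5 RPKM at 0 nM in experiment 1 and 91.7, 91.8 and 92.0 RPKM at 0, 0.05 and 0.25 nM in experiment 2 (log2 fold change 3.29 ± 0.47, limma adjusted p 3.6e-04). The gag-pol ORF of that Ty1 copy, YDR098C-B, had 0.96% unique windows and 0.0458 RPKM at 20 nM and above and 0.0191 RPKM at 0.25 nM and under, too few reads to follow. The lower genes were SEN34, a tRNA splicing endonuclease gene next to YARCTy1-1 (log2 fold change -1.62, limma adjusted p 8.3e-05), and RBH2 (-1.40, 3.3e-06). RBH2 is the nearest gene outside any Ty on its side of YJRWTy1-1. It lies 5574 bases from that copy, a stretch taken up by the copy YJRWTy1-2. At single doses YER137C, RRN11, ERB1 and RRP9 were called lower at 500 nM, as were 7.11% of all genes, and ASF1 at 50 nM, as were 5.72%. Within 1000 bases of 24 of the 30 copies lie 27 tRNA genes, whose levels were not analysed here.

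The upstream sequences of YNL284C-A, which was called, and YMR046C, which was not, are nearly the same. In the 250 bases before the start codon YNL284C-A and YMR046C differ at 2 positions. A stretch of 50 bases that begins 150 bases before the start is shown for both, for the Ty1 gag ORF YJR026W and for the Ty2 gag ORF YDR261W-A, with capitals for TGAAACA, the motif of Ste12, and CATTCC, the motif of Tec1 (GGAATG on the other strand). It lies at chr14:102333-102382 on the minus strand, chr13:362728-362777 on the minus strand, chr10:472610-472659 on the plus strand and chr4:981312-981361 on the plus strand, in the order printed.
YNL284C-A: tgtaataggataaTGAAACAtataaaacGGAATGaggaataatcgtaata
YMR046C: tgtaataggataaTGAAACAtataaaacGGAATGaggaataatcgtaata
YJR026W: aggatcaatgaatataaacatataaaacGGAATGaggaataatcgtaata
YDR261W-A: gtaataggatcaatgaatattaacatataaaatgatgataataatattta

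TGAAACA starts 137 bases before the start codon and the reversed CATTCC 122 bases before it in both Ty1 copies. YMR046C holds CATTCC 2 times in the window searched, the other match lying within the ORF, and YNL284C-A 1 time. In the window between 250 bases before and 50 after the start, on both strands, TGAAACA occurs in 7.52% of 5987 genes and CATTCC in 10.9%. Of the Ty1 ORFs that contain no other listed ORF, 6 of 22 hold TGAAACA and 16 of 22 hold CATTCC. Besides gag ORFs, this set has the pol ORF YAR009C and the gag-pol ORFs YER138C, YER160C and YML045W, whose gag ORFs are not listed. YML045W is among the 6 with TGAAACA. Of the 7 Ty2 gag ORFs, 0 hold TGAAACA and 1, YDR210W-A, holds CATTCC in that window. Of 3 Ty4 ORFs other than the gag-pol ORF YHL009W-B, 2 hold TGAAACA, 21 bases into the ORF, and 0 hold CATTCC. Over the whole ORF both motifs occur in all 17 Ty1 and all 7 Ty2 gag-pol ORFs with a listed gag ORF. Of 21 other ORFs of similar length, 90.5% hold TGAAACA and 81.0% CATTCC. These are matches of letters and no test of either factor.

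The genes of known regulators of Ty1 were read from the same fit. Of 17 genes for factors that promote Ty1 transcription, 1 was called higher and 0 lower (limma; 2.28% and 4.40% of all genes), with a median log2 fold change of -0.18 beside -0.10 over all genes, and at an unadjusted p under 0.05, 3 were higher and 8 lower. TEC1 averaged 121 ± 18.9 RPKM at 20 nM and above and 54.7 ± 9.01 RPKM at 0.25 nM and under (log2 fold change 1.03 ± 0.10, limma adjusted p 2.5e-05), with groups that do not overlap. STE12 averaged 75.2 ± 7.84 and 55.4 ± 5.05 RPKM in the same order, a log2 fold change of 0.38 that passed the adjusted p (0.0047, limma). By the adjusted p alone 3 of these genes were higher and 6 lower, beside 9.10% and 25.9% of all genes, among the lower ones RAP1 (-0.63) and the chromatin factors GCN5 (-0.48), SNF2 (-0.45) and SNF6 (-0.41). Of 18 genes for host factors that restrain or support transposition, 1 was called higher, FUS3, the mating kinase, with 255 ± 19.5 RPKM at 20 nM and above and 61.1 ± 4.74 RPKM at 0.25 nM and under (log2 fold change 2.01 ± 0.07, limma adjusted p 3.5e-08), and 4 were called lower, beside 2.28% and 4.40% of all genes. By the adjusted p alone 2 were higher and 9 lower, beside 9.10% and 25.9%, with a median log2 fold change of -0.22. The 4 called lower were RTT107 (-2.27), RTT109 (-1.25) and RTT105 (-1.04), named for their effect on Ty1 and acting in genome maintenance, and RRM3 (-1.21), a replication helicase gene.

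As a check of the labels, the pheromone reporter gene FUS1 had a log2 fold change of 3.71, and the 5 MATa genes MFA1, MFA2, STE2, STE6 and AGA2 were present in both groups and higher at 20 nM and above by the adjusted p. Of the genes specific to MATα cells, MF(ALPHA)1 is deleted in the strain and checks nothing, and STE3 averaged 2.17 ± 0.97 RPKM at 20 nM and above and 2.09 ± 0.39 RPKM at 0.25 nM and under. SAG1 averaged 12.9 ± 6.16 and 7.30 ± 0.69 RPKM in the same order (limma adjusted p 0.16). Against 0 nM, however, SAG1 was called higher at 10 and 20 nM, as were 1.55% and 1.77% of all genes. Its highest log2 fold change over the shared doses was 1.44, so this gene is no clean check of the labels. The part of SAG1 in these results was not tested. Library totals, recovered from the RPKM values, were between 4870000 and 16660000 mapped reads, and 3 reads on an ORF of 1000 bases correspond to 0.180 to 0.616 RPKM, for counting error only.

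The ORFs not above 1 mean RPKM gave no basis for a call. Above 0 stood YAR009C, YBL005W-A, YBL005W-B, YBR012W-A, YBR012W-B, YDR034C-C, YDR098C-B, YDR210W-A, YDR210W-B, YDR365W-B, YHL009W-A, YHL009W-B, YJR029W, YLR035C-A, YLR157C-B, YML039W, YML045W and YMR050C. Of these YAR009C, a Ty1 pol ORF on chromosome I, had 1.20 ± 0.31 RPKM at 20 nM and above and 0.359 ± 0.107 RPKM at 0.25 nM and under. Listed at 0 in all libraries were YAR010C, YDR098C-A, YDR316W-A, YDR316W-B, YDR365W-A, YER138C, YER160C, YGR027W-A, YGR027W-B, YGR038C-A, YGR038C-B, YGR161W-A, YGR161W-B, YJR026W, YJR028W, YLR157C-A, YML040W, YMR051C, YOR142W-A, YOR142W-B, YPL257W-A, YPL257W-B, YPR137C-A and YPR137C-B. For this last group the unique sequence is nil or nearly so, and presence or absence of their RNA was not detectable.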

How the data were processed

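RNA of 18 aliquots was sequenced in 2 experiments that the study calls independent. By its methods, aliquots of a grown suspension were moved into separate flasks with pheromone. As described, the libraries of an experiment thus share a starting culture and are not independent cultures. The SD, SE and p values given here are over such aliquots. The deposited RPKM values were made by the authors, who counted mapped reads by strand on each annotated gene and scaled them to gene length and library size. The processing notes name Bowtie 0.12.2 and sacCer3, whereas the methods text names Bowtie 2. How reads with several map positions were treated is not given in the sources used here. The 151 repeated gene names had identical values and were kept once, and 6048 of 7126 names matched R64.

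Genes averaging 1 RPKM or more entered limma 3.58.1 (R 4.3.3), fitted to log2(RPKM + 1) values with experiment as block, eBayes with trend and Benjamini-Hochberg adjustment over all genes. A fold change on this scale understates the change of low genes. Counts at an unadjusted p are given without the share of all genes and so have no background to be read against. The experiment pairs the libraries: deviations of the same experiment correlated by 0.35 on average (0.18 to 0.47, 21 pairs of doses). Since the label of 1 library gives nm, 0.05 was taken as nM. Library totals were recovered by comparing low values across genes, and 99.8% to 100% of values up to 100 reads came out whole. Windows of 50 bases were counted on both strands of R64 with Python 3.11.15, numpy 2.4.6 and pandas 2.3.3. Tested on simulated data of 5553 genes for the high against low comparison, 100 of 100 genes changed by 1.5 on the log2 scale were called at 2-fold, 4 of 100 changed by 0.8, and 1 of 5353 others. The simulated counts had a fixed spread and no difference between experiments, and the changed genes were drawn only above a minimum of reads. The measured libraries do differ between experiments, so these rates may not hold for them.

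The members and lists were chosen with earlier results of these data known. Named are ORFs called in any comparison, the 10 of highest mean, the 5 largest and 5 smallest changes, the 5 of most unique sequence, called neighbours and called list genes.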

Additional observations from a re-analysis of the deposited data

Results flagged for a closer look

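In 1 of 32 groups examined (16 ORFs, high-dose and low-dose libraries), a library lay far from the rest, where chance alone gives about 1.6. The Ty1 gag-pol ORF YMR045C had 9.56 RPKM at 0 nM in experiment 1, against 5.59 to 6.19 RPKM in the other low-dose libraries, all from experiment 2. Without that library its log2 fold change was 0.33, beside 0.26 with all 11.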

How the results depend on the processing

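Called ORFs at 20 nM and above were 9 of 16 (8 of 15 without YJL114W), and 3 with a pseudocount of 5 or in experiment 1 alone, which has 1 low-dose library. With a pseudocount of 0.1, 2 ORFs were called at 5 nM and 5 at 10 nM, and with a pseudocount of 5 there were 0, 1, 2, 4 and 4 at 5, 10, 20, 50 and 500 nM. Quantile normalization gave 2 at 5 nM, and limma-voom on recovered reads 2 at 5 nM and 5 at 10 nM. Without the replicate block 0 were called at 5 nM and 5 at 20 nM. Leaving out 1 library at a time gave 8 to 9 called higher and 0 to 0 lower at 20 nM and above, and over 0 nM 0 to 0 at 1 nM, 1 to 1 at 5 nM, 3 to 4 at 10 nM, 3 to 8 at 20 nM, 8 to 9 at 50 nM and 7 to 10 at 500 nM. The log2 ratio of the summed reads stayed between 0.85 and 1.15 for Ty1, 1.68 and 1.80 for Ty2 and 1.80 and 1.98 for Ty4. The median unique share of 11.2% became 8.04% with windows of 36 bases and, chosen after seeing the data, 1.61% when no other window may lie within 1 mismatch. YCL020W was reversed at -0.089 (adjusted p 0.85, limma) with only 0 nM as the low group. Why these counts moved was not tested. Depth limits YJL114W (404 reads over all libraries) and YCL020W (633) most among the ORFs tested.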
